A study of Homo sapiens with 18 samples.

Results

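The aryl hydrocarbon receptor system was followed through 5 genes, picked by symbol from a table of 58735 annotated genes: the receptor AHR, its repressors AHRR and TIPARP, and the enzyme genes CYP1A1 and CYP1B1. Each symbol matched 1 row, and all 5 were among the 17409 genes that passed the filter on low counts. RNA was sequenced from 2 human keratinocyte lines, the spontaneously immortal skin line HaCaT and the gingival (gum) line TIGK, which was immortalised with telomerase. Each was collected without a scratch (0 h) and at 6 h and 24 h after a scratch wound, with 3 libraries in each of the 6 groups. No other treatment is given in the labels, and no agent that activates the receptor is named there. Each tissue is represented by 1 line, so tissue and line cannot be told apart. With no unscratched culture at 6 h or 24 h, the scratch and the hours in culture cannot be told apart either.

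AHR is a transcription factor of the bHLH-PAS family that waits in the cytoplasm in a complex with HSP90 and p23 (PTGES3). When a planar aromatic ligand binds, such as a dioxin, a combustion product or a tryptophan metabolite, it enters the nucleus, pairs with ARNT and binds DNA elements with the core GCGTG. Its best known targets are the CYP1 monooxygenases, which break down many of these ligands, together with AHRR, which competes for ARNT and the DNA element, and TIPARP, a mono-ADP-ribosyl transferase that marks AHR and lowers its activity. In skin the receptor is known for its part in the barrier, in pigmentation and in chloracne caused by dioxins.

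Because AHR with ARNT acts through the core element, the promoter stretches of these genes that hold it are printed here, 5′ to 3′ in the direction of the gene, with GCGTG (or CACGC where the element lies on the opposite strand) in capitals. Windows were the 250 bases before a RefSeq start (GRCh38.p14), at the start farthest 5′ where a gene has several, and 4 of the 5 genes matched an entry. The AHRR window, chr5:321464-321713, plus strand, holds 1 element 30 to 26 bases before the start and overlaps no AHRR exon in GENCODE release 29. It lies inside the annotated span of AHRR, which begins at base 304176.
AHRR: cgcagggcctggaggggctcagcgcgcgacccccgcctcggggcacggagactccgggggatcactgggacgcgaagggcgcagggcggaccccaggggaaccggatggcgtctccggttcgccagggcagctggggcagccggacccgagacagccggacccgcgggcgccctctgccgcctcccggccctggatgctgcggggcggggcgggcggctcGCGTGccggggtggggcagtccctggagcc
For CYP1A1 and TIPARP only the 30 bases around each element are shown, because their windows overlap transcribed bases. GENCODE annotates 82 of the 250 bases of the CYP1A1 window and 248 of the 250 of the TIPARP window as untranslated region. The CYP1A1 site, chr15:74725568-74725597, minus strand, has its element 57 to 53 bases before the start.
CYP1A1: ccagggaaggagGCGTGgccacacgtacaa
The TIPARP sites, chr3:156674370-156674399 and chr3:156674436-156674465, plus strand, have theirs on the opposite strand, 208 to 204 and 142 to 138 bases before the start.
TIPARP first site: cgcgagaaaggaCACGCcccctcgcgggag
TIPARP second site: cgaacgaacgcgCACGCgcgcgcagggggc
The AHR window had 0 matches on either strand. GCGTG occurred on at least 1 strand in 32.2% of the 35116 windows of this length. The longer TNGCGTG, which contains the core, occurred in 4.52%, and the AHRR window was the only window of these 4 genes with it. Sequence outside the 250 bases, such as elements farther upstream, was not searched. A match is a run of letters and does not show binding.

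Libraries held 14238090 to 25011331 counted reads. In TIGK, letter C of 0 h and letter C of 6 h stood apart with 26246 and 25161 genes detected, against 21164 to 22799 in the other 16 libraries. Pairs of libraries within a group differed by more than counting noise, with a chi-square per degree of freedom of 12.2 to 16.4 for the 6 pairs with a TIGK letter C library and 3.28 to 6.57 for the other 12. Summed markers of keratinocytes (KRT5, KRT14, TP63, CDH1, DSP) stood at 29136 to 38737 CPM (read counts scaled to library size with TMM factors), and those of melanocytes at 1.97 to 4.70, of immune cells at 0 to 0.957 and of endothelium at 1.62 to 8.15. Of the 7 fibroblast markers, PDGFRA had no count in any HaCaT group, and LUM had none in HaCaT at 6 h. COL1A2 had no count in HaCaT at 0 h and 6 h, and none in TIGK at 6 h and 24 h. The sum of the 7 ranged from 21.0 to 40.8 CPM in HaCaT and from 236.6 to 435.1 in TIGK. Its part in the differences between the lines was not tested. In bulk RNA, fewer cells that express a gene and less RNA per cell cannot be told apart.

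The lines differed in every one of the 5 genes before the scratch. AHR, TIPARP and CYP1B1 were higher in HaCaT, and AHRR and CYP1A1 were higher in TIGK. By edgeR's quasi-likelihood test with a false discovery rate under 0.05, 5 of 5 genes were called at 0 h, 3 higher and 2 lower in HaCaT, where 62.6% of all tested genes were called (29.3% higher, 33.3% lower). In all 5 the 3 libraries of one line lay apart from the 3 of the other, as in 68.1% of all genes. At 6 h the calls numbered 4 of 5, 2 higher and 2 lower, against 62.6% of all genes (29.8% and 32.8%), and the same 4 did not overlap (background 67.3%). At 24 h they numbered 5 of 5, 2 higher and 3 lower, against 61.7% (28.6% and 33.1%), all without overlap (64.3%). Most genes differ between these lines, so the number called is no result about the 5 genes, and the directions and sizes below are what the data add.

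**Figure D1:**
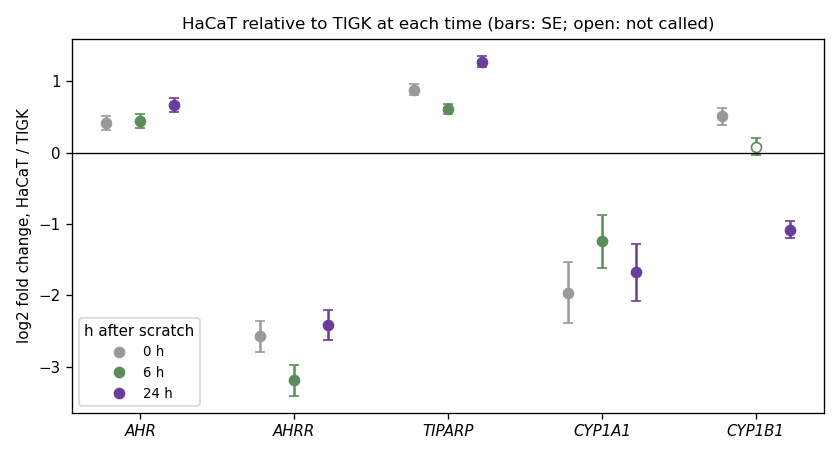
Log2 fold change of HaCaT over TIGK for each gene at 0 h, 6 h and 24 h after the scratch (bars: SE of the edgeR fit; open symbol: not called). AHR and TIPARP lie above 0 and AHRR and CYP1A1 below it at all 3 times, while CYP1B1 goes from 0.51 at 0 h to −1.08 at 24 h.

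Fewer genes were called in the scratch response than between the lines, both among the 5 and among all genes tested. With 5 genes, the number called is here too no result about them. In HaCaT at 6 h against 0 h, 0 of 5 genes were called by edgeR (background 0.201%, 35 genes of all tested), 2 had an unadjusted p under 0.05 (CYP1A1 and CYP1B1), and DESeq2 and limma each called 0. TIPARP was the 1 gene of 5 called in HaCaT at 24 h against 0 h (background 31.4%), and also at 24 h against 6 h (35.7%). In TIGK the 1 gene called at 6 h against 0 h was again TIPARP (3.62%), and the 1 gene called at 24 h against 0 h was CYP1B1 (32.3%). Between 6 h and 24 h in TIGK, 3 of 5 were called (36.7%): CYP1B1 higher, AHRR and TIPARP lower. Groups of libraries without overlap were more frequent than calls: 4 of 5 genes in HaCaT at 6 h against 0 h (all genes 15.9%), 3 at 24 h against 0 h (45.6%) and 2 at 24 h against 6 h (48.7%), and in TIGK 3 (19.6%), 2 (40.9%) and 3 (43.7%). The difference between the lines in the 6 h response was called for 0 of 5 by edgeR (background 0.752%), with TIPARP and CYP1B1 at an unadjusted p under 0.05 and 0 called by DESeq2 or limma, and in the 24 h response for 2 of 5 (13.5%), TIPARP and CYP1B1. Comparisons of one line at 6 h and at 24 h share the 0 h libraries.

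**Figure D2:**
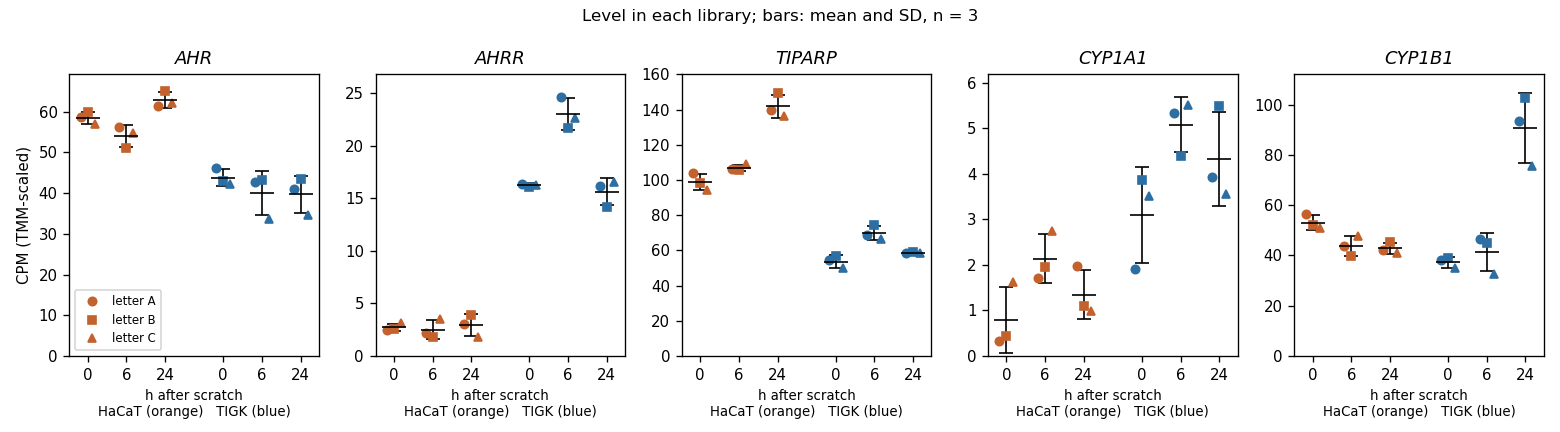
CPM of each gene in every library, by line (HaCaT orange, TIGK blue) and hours after the scratch; symbols mark the library letter, and the bars are the mean and SD of 3 libraries. TIPARP in HaCaT is highest at 24 h, CYP1B1 in TIGK is highest at 24 h, and AHRR in TIGK is highest at 6 h.

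The receptor itself was moderately expressed in both lines and higher in HaCaT at each time. AHR (ENSG00000106546) lies on chromosome 7, bases 16916359 to 17346152 of hg38, plus strand. In HaCaT its level was 58.8, 59.9 and 56.9 CPM in libraries A, B and C at 0 h, 56.1, 51.1 and 54.9 at 6 h, and 61.5, 65.1 and 62.2 at 24 h. In TIGK it was 46.3, 42.9 and 42.2 at 0 h, 42.8, 43.3 and 33.7 at 6 h, and 41.0, 43.5 and 34.7 at 24 h. Every HaCaT library was above every TIGK library. HaCaT exceeded TIGK 1.34-fold at 0 h (log2 0.42, SE 0.10, adjusted p = 5.65e-04), 1.36-fold at 6 h (adjusted p = 3.89e-04) and 1.58-fold at 24 h (adjusted p = 2.32e-06).

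AHR itself was not called in any response to the scratch. In HaCaT the ordered group means were 62.9 ± 1.93 CPM at 24 h, 58.5 ± 1.53 at 0 h and 54.1 ± 2.59 at 6 h (SD, n = 3), with no overlap between neighbours. The step from 6 h to 24 h was 0.22 on the log2 scale (adjusted p = 0.0791), and 6 of 27 alternative settings called it, with adjusted p from 0.0219 to 0.234. In TIGK the 3 times overlapped, with the 2 lowest libraries both of letter C. Of the 8081 exon bases of AHR, 32.3% are shared with another annotated gene, nearly all with AC019117.2, which had 0 counts in all 18 libraries. How reads on shared bases were counted is not given in the sources used here. The 0 counts therefore do not show that AHR was counted in full.

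AHRR, the repressor that competes with AHR for ARNT, showed a wide gap between the lines at every time. It lies on chromosome 5, bases 304176 to 438291, plus strand (ENSG00000063438). In HaCaT it stood at 2.43, 2.60 and 3.12 CPM at 0 h (38, 42 and 50 counts), 2.22, 1.77 and 3.53 at 6 h, and 3.05, 3.89 and 1.83 at 24 h. In TIGK the libraries held 16.4, 16.0 and 16.3 CPM at 0 h (267, 278 and 431 counts), 24.7, 21.7 and 22.7 at 6 h, and 16.2, 14.2 and 16.5 at 24 h. HaCaT was thus low at every time and TIGK high, with no overlap. The fitted level in HaCaT was 5.96-fold lower at 0 h (log2 −2.58, SE 0.21, adjusted p = 1.22e-10), 9.13-fold lower at 6 h (adjusted p = 2.70e-12) and 5.35-fold lower at 24 h (adjusted p = 4.31e-10). The line with more receptor RNA carried less RNA of this repressor, and more RNA of the other, TIPARP, at each time.

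The highest AHRR level was in TIGK at 6 h. Its 3 libraries lay above all 6 TIGK libraries of 0 h and 24 h, and those other 2 groups overlapped. Against 0 h the 6 h mean was 1.42-fold higher but was not called (log2 0.50, SE 0.18, adjusted p = 0.144). DESeq2 called it (adjusted p = 0.0349), and so did limma on log2(FPKM + 1) and edgeR with only the groups compared, within a range of adjusted p from 0.0234 to 0.404 over the alternatives. The authors' deposited table of TIGK at 6 h against 0 h lists AHRR with a log2 change of 0.51 and an adjusted p of 0.00667. From 6 h to 24 h AHRR fell by 0.56 on the log2 scale (SE 0.18, adjusted p = 0.0169). That call was lost without the TIGK 6 h letter A library (adjusted p = 0.0615), without the 24 h letter B library (adjusted p = 0.0705) and with limma on log2(FPKM + 0.1) (adjusted p = 0.0580), the alternatives giving 0.00141 to 0.0705. In HaCaT the 3 times overlapped, with 28 to 58 counts per library. Exons of AHRR share 244 bases with PDCD6, a calcium-binding protein gene which stood higher in TIGK too, at 102.0 CPM against 66.5 on average at 0 h, and the part of such reads in the AHRR counts was not tested.

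TIPARP, the transferase that modifies AHR, was the only one of the 5 genes that edgeR called in the scratch response of both lines, at 6 h in TIGK and at 24 h in HaCaT. It lies on chromosome 3, bases 156673235 to 156706770, plus strand (ENSG00000163659). HaCaT held 103.8, 98.0 and 94.5 CPM at 0 h, 106.4, 105.5 and 108.9 at 6 h, and 139.7, 149.3 and 136.4 at 24 h. TIGK held 54.3, 56.7 and 49.8 at 0 h, 68.5, 74.4 and 66.4 at 6 h, and 58.2, 59.0 and 58.4 at 24 h. The order of the 6 groups was HaCaT 24 h, 6 h and 0 h, then TIGK 6 h, 24 h and 0 h, and no neighbours in it overlapped.

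In HaCaT TIPARP rose 1.44-fold from 0 h to 24 h (log2 0.52, SE 0.07, adjusted p = 4.20e-06). Most of that step came after 6 h, where the change from 0 h was 0.11 on the log2 scale (adjusted p = 0.784) and the change from 6 h to 24 h was 0.41 (adjusted p = 8.16e-05). In TIGK it rose 1.3-fold from 0 h to 6 h (log2 0.38, SE 0.07, adjusted p = 0.00257) and fell by 0.25 on the log2 scale from 6 h to 24 h (adjusted p = 0.00951). The later fall was not called without the TIGK 6 h letter B library (adjusted p = 0.0661) or with only the groups compared (adjusted p = 0.0573), in a range from 0.00378 to 0.0661. At 24 h TIGK stood at 58.6 ± 0.43 CPM against 53.6 ± 3.52 at 0 h, a difference that was not called (adjusted p = 0.204). The 24 h response was larger in HaCaT than in TIGK by 0.39 on the log2 scale (SE 0.10, adjusted p = 0.0122), while the difference in the 6 h response, −0.27, was not called (adjusted p = 0.321). HaCaT exceeded TIGK 1.84-fold at 0 h, 1.53-fold at 6 h and 2.42-fold at 24 h (adjusted p = 1.83e-10, 8.60e-08 and 2.10e-13). The antisense neighbour TIPARP-AS1 shares 37 exon bases with TIPARP and had at most 11 counts in any library.

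**Figure D3:**
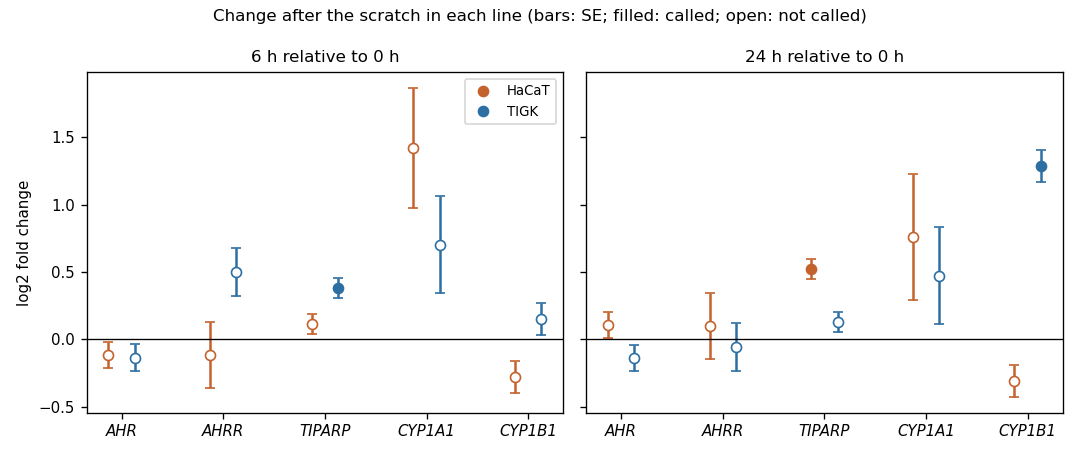
Log2 fold change from 0 h in each line at 6 h (left) and 24 h (right) after the scratch (bars: SE; filled: called; open: not called). The filled points are TIPARP in TIGK at 6 h (0.38), TIPARP in HaCaT at 24 h (0.52) and CYP1B1 in TIGK at 24 h (1.28).

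CYP1A1, the monooxygenase gene most often used to read AHR activity, was close to the detection limit in HaCaT and low in TIGK. It lies on chromosome 15, bases 74719542 to 74725610, minus strand (ENSG00000140465), and shares no exon base with another gene. HaCaT libraries held 0.320, 0.433 and 1.62 CPM at 0 h, 1.71, 1.96 and 2.74 at 6 h, and 1.97, 1.09 and 0.979 at 24 h, from 5, 7 and 26 counts, 27, 32 and 45 counts, and 31, 16 and 15 counts. TIGK libraries held 1.91, 3.87 and 3.52 CPM at 0 h, 5.32, 4.39 and 5.51 at 6 h, and 3.93, 5.49 and 3.56 at 24 h, from 31 to 101 counts. The HaCaT letter C library at 0 h, with 26 counts, stood well above the other 2 of its group. At each time TIGK lay above HaCaT, although neighbours in the order of the 6 groups (TIGK 6 h, 24 h, 0 h, then HaCaT 6 h, 24 h, 0 h) all overlapped.

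The fitted CYP1A1 level in HaCaT was 3.90-fold lower than in TIGK at 0 h (log2 −1.96, SE 0.43, adjusted p = 3.19e-04), 2.37-fold lower at 6 h (adjusted p = 0.00573) and 3.19-fold lower at 24 h (adjusted p = 8.26e-04). Without the HaCaT 0 h letter C library the 0 h difference was −3.02 on the log2 scale. No CYP1A1 response to the scratch was called. In HaCaT all 3 libraries at 6 h lay above those of 0 h (log2 1.42, SE 0.44, adjusted p = 0.292). Leaving out the letter C library of HaCaT at 0 h changed this to 2.47 and a call (adjusted p = 0.0231, with 0.0231 to 0.728 over the alternatives), and the 24 h value from 0.76 to 1.81 (adjusted p from 0.236 to 0.00900, with 0.00900 to 0.663 over the alternatives). In TIGK the 6 h libraries were likewise above those of 0 h, with a log2 value of 0.70 (SE 0.36, adjusted p = 0.384). These values rest on 31 to 101 counts per TIGK library. The neighbouring family member CYP1A2 had 0 counts in HaCaT and at most 5 in a TIGK library.

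CYP1B1, the other CYP1 enzyme gene, gave the largest called response of the 5 genes. It lies on chromosome 2, bases 38066973 to 38109902, minus strand (ENSG00000138061). HaCaT libraries held 56.3, 52.1 and 50.8 CPM at 0 h, 43.9, 39.7 and 47.7 at 6 h, and 42.3, 45.3 and 41.0 at 24 h. TIGK libraries held 38.0, 38.8 and 34.9 at 0 h, 46.6, 44.9 and 32.5 at 6 h, and 93.6, 102.6 and 75.4 at 24 h. The 3 TIGK libraries at 24 h were above the other 15 libraries of both lines, and HaCaT at 0 h came next. The other 4 groups overlapped with their neighbours in the order.

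In TIGK CYP1B1 rose 2.44-fold from 0 h to 24 h (log2 1.28, SE 0.12, adjusted p = 1.06e-08) and 2.19-fold from 6 h to 24 h (adjusted p = 5.49e-08). At 6 h it differed from 0 h by 0.15 on the log2 scale (adjusted p = 0.657), with the letter C library lowest. In HaCaT both later times lay below 0 h without overlap, at −0.28 for 6 h (adjusted p = 0.585) and −0.31 for 24 h (SE 0.12, adjusted p = 0.0523). The 24 h value sat at the threshold: 11 of 27 alternatives called it, and all 27 gave values between −0.35 and −0.26, and the authors' deposited table lists −0.30 with an adjusted p of 0.00291. The difference between the lines in the 24 h response was −1.59 (SE 0.17, adjusted p = 3.39e-07).

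The order of the lines for CYP1B1 turned over with time. HaCaT was 1.43-fold higher at 0 h (log2 0.51, SE 0.12, adjusted p = 6.26e-04), differed by 0.08 at 6 h (adjusted p = 0.559) and was 2.11-fold lower at 24 h (log2 −1.08, SE 0.12, adjusted p = 2.48e-08). Of the exon bases of CYP1B1, 13% are shared with other genes, 678 of them with the antisense CYP1B1-AS1. That neighbour stood at 4.44 ± 1.11 CPM in TIGK at 0 h and 6.90 ± 2.69 at 24 h, a log2 difference of 0.65 that was not called (adjusted p = 0.206). Of 5 fibroblast markers tested, 4 were called higher in TIGK at 24 h against 0 h, as were 2655 of all 17409 genes tested. The sum over the list of 7 was 236.6 to 274.3 CPM per library at 0 h and 391.3 to 435.1 at 24 h, with no count of COL1A2 at 24 h. In HaCaT, where CYP1B1 did not rise, 1 of the 5 was called higher, as were 2706 of all genes tested. The same sum in HaCaT was 24.9 to 29.1 CPM at 0 h and 37.7 to 40.8 at 24 h, with no count of PDGFRA. Their part in the result was not tested.

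Between genes, levels were compared per length as FPKM (fragments scaled to gene length and library size), as deposited. Exon bases shared with other genes made up 32.3% of AHR, 13% of CYP1B1, 3.18% of AHRR, 0.733% of TIPARP and 0% of CYP1A1. The part of shared bases in the FPKM values was not tested. TIPARP was the highest of the 5 in HaCaT, with group means of 19.2, 20.7 and 28.0 FPKM at 0 h, 6 h and 24 h. AHR and CYP1B1 came next at 6.55 to 7.76 and 7.10 to 8.67 FPKM. AHRR and CYP1A1 were the lowest in HaCaT, at 0.319 to 0.379 and 0.227 to 0.608. In TIGK the means of TIPARP were 10.4, 13.7 and 11.5 FPKM, those of AHR 4.86 to 5.34, of AHRR 2.01 to 2.97 and of CYP1A1 0.887 to 1.46. CYP1B1 in TIGK went from 6.09 FPKM at 0 h to 14.9 at 24 h, where its libraries, 12.4 to 16.8, lay above the 11.4 to 11.5 of TIPARP.

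**Figure D4:**
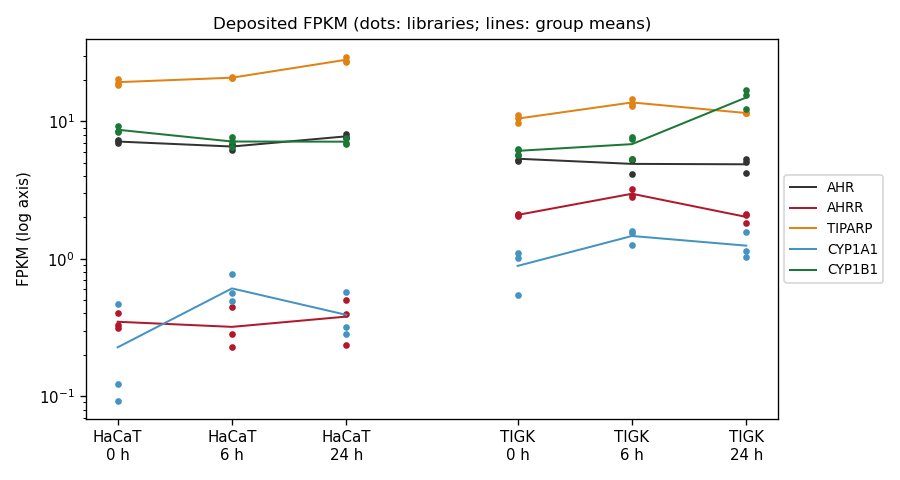
Deposited FPKM of the 5 genes on a log axis, by line and hours after the scratch (dots: libraries; lines join group means). TIPARP leads in HaCaT, and in TIGK CYP1B1 passes it at 24 h with a mean of 14.9 against 11.5 FPKM.

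The partners of the receptor were called in both directions between the lines. Of 9 tested genes for ARNT proteins, chaperones, coactivators and the ubiquitin ligase subunit CUL4B, 2 were higher and 4 lower in HaCaT at 0 h (median log2 −0.20, against −0.04 over all genes tested, of which 29.3% were called higher and 33.3% lower). ARNT2, a relative of ARNT best known from neurons, was 3.27-fold higher, and the coactivators NCOA3 and NCOA2 were 1.52-fold and 1.69-fold lower. From 0 h to 24 h, 4 of 9 rose and 1 fell in HaCaT (median 0.52, all genes 0.00), and 4 rose and 2 fell in TIGK (median 0.01, all genes −0.01). Of all genes tested, 31.4% were called in HaCaT and 32.3% in TIGK at that time. ARNT, the obligate partner of AHR, rose in both lines, from 41.1 ± 1.00 to 59.5 ± 3.55 CPM in HaCaT (adjusted p = 2.74e-05) and from 30.4 ± 1.96 to 44.9 ± 2.41 in TIGK (adjusted p = 1.73e-05). The HSP90 genes HSP90AA1 and HSP90AB1 fell in TIGK by 0.62 and 0.53, and their 24 h responses differed between the lines by 0.59 (adjusted p = 0.00269) and 0.32 (adjusted p = 0.0463). For HSP90AA1 the TIGK letter C library was the highest of its group at 0 h and at 6 h.

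Other PAS-domain proteins use ARNT or its relatives too. Of 7 tested, 2 were higher and 4 lower in HaCaT at 0 h (median −0.43, all genes −0.04 with 62.6% called). HIF1A, the hypoxia-responsive subunit that pairs with ARNT, had 393.5 ± 39.1 CPM in TIGK and 110.8 ± 4.56 in HaCaT, 3.55-fold less (adjusted p = 1.62e-15). By 24 h, 0 rose and 3 fell in HaCaT (ARNTL, ARNTL2 and CLOCK; 31.4% of all genes called), and 0 rose and 2 fell in TIGK (NPAS2 and CLOCK; 32.3%). ARNTL, the clock factor also called BMAL1, fell by 0.78 in HaCaT (adjusted p = 2.01e-06), and its response differed from that in TIGK by −0.58 (adjusted p = 0.00901).

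Other genes known to respond to AHR were called in both directions between the lines. Of 9 xenobiotic and metabolic genes tested, 5 were higher and 4 lower in HaCaT at 0 h (median 0.39), against 29.3% higher and 33.3% lower among all genes (median −0.04). KYNU, an enzyme of the kynurenine pathway, had 0, 4 and 1 counts in the HaCaT libraries (0.103 CPM on average) and 14.5 ± 0.42 CPM in TIGK. NQO1, a quinone reductase that NRF2 also drives, fell by 0.27 in TIGK at 24 h (adjusted p = 0.00622), and its response was 0.41 higher in HaCaT (adjusted p = 0.00837). At 24 h, 2 of the 9 rose and 1 fell in HaCaT (31.4% of all genes called), and 3 rose and 1 fell in TIGK (32.3%). UGT1A1 was among those that rose in TIGK, and since the UGT1A genes share exons its counts are uncertain.

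Of 6 secreted or signalling genes, 4 rose and 1 fell in HaCaT at 24 h (median 0.92, all genes 0.00 with 31.4% called), and 2 rose and 1 fell in TIGK (median 0.13, all genes −0.01 with 32.3% called). SERPINB2, the plasminogen activator inhibitor, went from 38.1 ± 3.34 to 104.7 ± 13.5 CPM in HaCaT (adjusted p = 5.10e-10), and IL1B from 2.16 ± 0.64 to 12.1 ± 3.07 (adjusted p = 1.03e-07). Of 6 barrier genes tested, all were called higher in HaCaT at 0 h (median 2.61, all genes −0.04 with 29.3% called higher), among them filaggrin, FLG, at 37.1 ± 1.77 against 1.39 ± 0.68 CPM, and HRNR, with no count in TIGK and at least 24.0-fold higher by a floor of 3 counts per library. At 24 h, 3 of the 6 barrier genes rose and 0 fell in HaCaT (31.4% of all genes called), and 2 rose and 1 fell in TIGK (32.3%). FLG was the gene that fell in TIGK, by 1.13 on the log2 scale (adjusted p = 0.0105), with overlapping libraries. OVOL1, a factor that AHR is reported to act through in keratinocytes, rose in both lines by 24 h, from 27.6 ± 2.91 to 75.8 ± 5.84 CPM in HaCaT (adjusted p = 1.34e-08) and from 11.7 ± 2.74 to 25.2 ± 3.02 in TIGK (adjusted p = 2.71e-06). TGM1, the transglutaminase of the cornified envelope, first fell in HaCaT, by 0.54 on the log2 scale at 6 h against 0 h (adjusted p = 0.00775), with a 6 h response 0.80 lower than in TIGK (adjusted p = 0.00213). By 24 h it had risen 2.15-fold above 0 h in HaCaT (adjusted p = 1.05e-09), with a response 1.00 above that of TIGK (adjusted p = 6.01e-06). Of 6 enzymes of tryptophan and kynurenine metabolism, 1 rose and 1 fell in HaCaT at 24 h (31.4% of all genes called), and 0 rose and 2 fell in TIGK (32.3%). AADAT, a kynurenine aminotransferase, went from 12.9 ± 1.47 to 6.28 ± 0.72 CPM in TIGK (adjusted p = 1.88e-04).

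TIPARP was also set beside the enzymes of its own kind, the PARP family members that transfer 1 ADP-ribose unit. Of 10 tested, 5 rose and 1 fell by 24 h in HaCaT (median 0.38, all genes 0.00 with 31.4% called), and 5 rose and 1 fell in TIGK (median 0.43, all genes −0.01 with 32.3% called). The line difference in the 24 h response was called for 5 of them (13.5% of all genes), higher in HaCaT for 1 and lower for 4, the opposite side to the 0.39 of TIPARP. PARP14 stood at 72.3 ± 11.1 CPM at 0 h and 266.2 ± 34.2 at 24 h in TIGK, 3.69-fold higher (adjusted p = 1.01e-11), and at 14.2 ± 0.94 and 25.6 ± 1.56 in HaCaT (adjusted p = 1.71e-05). PARP9 rose 4.29-fold in TIGK (adjusted p = 2.09e-11), and its 24 h response in HaCaT was lower by 2.11 on the log2 scale (adjusted p = 5.03e-08). PARP12 rose 1.90-fold in TIGK (adjusted p = 1.25e-06) and fell by 0.94 on the log2 scale in HaCaT (adjusted p = 6.65e-06). These 3 genes are known as interferon-induced.

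**Figure D5:**
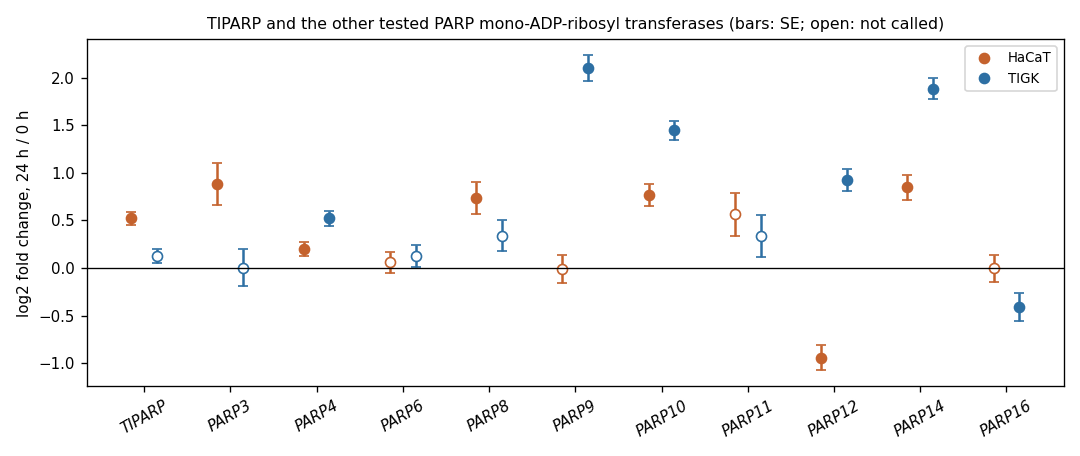
Log2 fold change from 0 h to 24 h of TIPARP and the 10 other tested mono-ADP-ribosyl transferases of the PARP family in HaCaT (orange) and TIGK (blue) (bars: SE; open: not called). TIPARP has the higher value in HaCaT (0.52 against 0.13), and PARP9, PARP12 and PARP14 have the higher value in TIGK.

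The genes most like each member were named by Pearson's r of log2 CPM over the 18 libraries, among about 10708 protein-coding genes with at least 5 CPM on average. Libraries of 1 line share its level, so except for CYP1B1 these values mostly follow the line, and they are descriptions. For AHR they were LDB1, CASK and COX6B2 (0.958, 0.956 and 0.955), for AHRR CYB5R2, PPP1R16B and KCNJ12 (0.984, 0.982 and 0.981), and for TIPARP KCTD11, N4BP3 and RELB (0.987, 0.982 and 0.980). For CYP1A1 they were SLC30A4, GDAP2 and CCBE1 (0.902, 0.899 and 0.882), and for CYP1B1 SAMD9, IFITM1 and N4BP1 (0.909, 0.904 and 0.903). The genes named for CYP1B1 had their highest group mean in TIGK at 24 h. SAMD9 averaged 159.7 CPM there and 39.9 to 47.6 in the other groups. With each line centred on its own mean the leading genes were FASN for AHR (0.812), CDK11B for AHRR (0.734), KLF10 for TIPARP (0.940), SLC30A4 for CYP1A1 (0.744) and SMARCD2 for CYP1B1 (0.953). The gene at place 100 in the centred order had 0.641 for AHR, 0.512 for AHRR, 0.770 for TIPARP, 0.471 for CYP1A1 and 0.842 for CYP1B1.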

How the data were processed

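Per the labels, total RNA was extracted with Trizol and made into libraries by a sequencing company. The submitters' processing notes name, with build hg38, the tools featureCounts 1.5.0-p3, HISAT2 2.0.5 and StringTie 1.3.3b; each tool's role, the annotation release and strandedness are not given in the sources used here. Per the file headers, the authors deposited counts per gene, FPKM, and tables of comparisons with log2 fold changes, p-values and a test score. Columns carry letters A to C that the labels do not tie to replicate numbers, so libraries are named by line, time and letter. Nothing says that the 3 libraries of a group came from separate cultures, so the spread that p-values rest on is that of the libraries at hand and may be technical.

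The deposited counts were filtered with filterByExpr, scaled by TMM and tested in edgeR 4.0.16 (R 4.3.3) with a quasi-likelihood fit of 6 group means over all 18 libraries, two-sided, with Benjamini-Hochberg adjustment over the 17409 genes tested. Calls are at a false discovery rate under 0.05. Every adjusted p is this value unless another tool or the authors' table is named. Folds use a prior count of 0.125. The SE is the absolute log2 fold change divided by the square root of F, an approximation. Alternatives were DESeq2 1.42.0, limma 3.58.1 on log2(FPKM + 1) and log2(FPKM + 0.1), RLE scaling, no filter, only the groups compared, a replicate block by letter, and libraries left out. Samples with the same letter did not all deviate together, so the letters were not used as pairs. Likeness used a prior count of 2.

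All 5 genes were named throughout. From each pathway list up to 3 genes with the lowest adjusted p per comparison described were eligible, and further list genes only where a sentence turned on them. For likeness the 3 genes with the highest r were named. The 5 genes and the lists were chosen with earlier results of these data known. List genes below the filter or not matched were HIF3A, CYP1A2, SCIN, IL24, LOR, IDO1, IDO2, TDO2, HAAO, ASMT and PARP15. A further list gene is not reported here and was left out of its list's counts. Promoter sequences are RefSeq's.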

Additional observations from a re-analysis of the deposited data

Results flagged for a closer look

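The 24 h response differed between the lines, by a test of the difference itself, for 2 of the 5 genes. TIPARP moved further in HaCaT than in TIGK by 0.39 on the log2 scale (edgeR adjusted p = 0.0122). CYP1B1 differed by −1.59, with a called rise in TIGK and a fitted value of −0.31 in HaCaT that was not called (edgeR adjusted p = 3.39e-07). No formal outlier test was run on groups of 3 libraries.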

How the results depend on the processing

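Each of 55 values (5 genes in 11 comparisons) was recomputed under 27 alternatives. Of the 23 called values, 21 kept their direction and call throughout, and AHRR and TIPARP in TIGK from 6 h to 24 h lost the call in 5 tests, with no reversal. Of the 32 values not called, 10 changed sign somewhere. With letter C left out of TIGK at both 0 h and 6 h, CYP1B1 between the lines at 6 h was −0.0648 and the line difference for AHR at 6 h −0.0623. Without all 3 letter C libraries of TIGK, an alternative chosen after seeing the data, these were −0.0653 and −0.0617, and the line difference in the 6 h response was called for 1 gene, CYP1B1 (−0.53, adjusted p = 0.0274, with 0.0274 to 0.628 over the alternatives). With limma on log2(FPKM + 1) the line difference for CYP1A1 at 24 h was −0.0675. The causes were not tested. Leaving out 1 library gave ranges of −0.0642 to 0.183 for CYP1B1 between lines at 6 h. For AHRR in HaCaT they were −0.445 to 0.0858 (6 h against 0 h), −0.155 to 0.347 (24 h against 0 h) and −0.0411 to 0.543 (24 h against 6 h), and in TIGK −0.0993 to 0.00812 (24 h against 0 h). They were −0.0986 to 0.0334 for CYP1B1 in HaCaT from 6 h to 24 h and −0.114 to 0.0818 for AHR in TIGK from 6 h to 24 h. For the line differences they were −0.0872 to 0.0797 (AHR at 6 h), −0.0975 to 0.404 (AHRR at 24 h) and −0.0928 to 1.34 (CYP1A1 at 24 h). The number of genes called out of 5 in HaCaT at 24 h against 0 h was 2 in place of 1 without a filter, with only the groups compared, under the replicate block (where CYP1B1 was −0.31, adjusted p = 0.0139, with 0.00374 to 0.163 over the alternatives) and without either set of TIGK letter C libraries, and 1 to 2 on leaving out 1 library. In HaCaT at 24 h against 6 h it was 2, AHR being added, with DESeq2, RLE scaling, only the groups compared, the replicate block and without either set of TIGK letter C libraries. In TIGK at 6 h against 0 h it was 2, AHRR being added, with DESeq2, only the groups compared and limma on log2(FPKM + 1). In HaCaT at 6 h against 0 h it was 0 to 1 on leaving out 1 library. Over all genes, that comparison called 35 genes, 104 with DESeq2, 200 with only the groups compared and 4 without the HaCaT 0 h letter B library. The line difference in the 6 h response called 131 genes, 290 with DESeq2 and 357 without all TIGK letter C libraries, and TIGK at 6 h against 0 h called 630, and 359 with only the groups compared. Same-letter libraries deviated with r from −0.02 to 0.02 in HaCaT and from −4.06e-04 to 0.388 in TIGK, and the labels do not tie letters to numbers, so the replicate block is no paired analysis. Counts per library were lowest for AHRR in HaCaT (28 to 58) and for CYP1A1 (5 to 101).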
